A study of Mus musculus with 556 samples.

Results

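Contact with the nuclear lamina was measured at 10 genes of the mouse pluripotency network: Pou5f1, Nanog, Sox2, Klf4, Esrrb, Tfcp2l1, Prdm14, Zfp42, Dppa3 and Tbx3. Each gene is represented by the 100 kb bin that holds its midpoint in build GRCm38 (mm10), with 5 bins on each side as context. The genes were chosen by name and occupy 10 distinct bins out of 24022 with a value in the deposited table, which together hold 20527 protein-coding genes.

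The study profiled single cells by DamID, in which the bacterial adenine methyltransferase Dam marks the GATC sites it reaches in living cells, and the methylated DNA is amplified and sequenced. Dam fused to lamin B1, a filament protein of the nuclear lamina, marks chromatin at the nuclear periphery, while Dam alone marks accessible chromatin. The values are ratios of observed to expected signal (OE) per bin. With Dam-lamin B1 the table holds 56 oocytes, 19 zygotes, 47 blastomeres of the 2-cell and 41 of the 8-cell stage, and 10 embryonic stem (ES) cells. With Dam alone it holds 43 oocytes, 46 zygotes, 45 blastomeres of the 2-cell and 4 of the 8-cell stage. A further 17 oocytes labelled 20 ng and 23 labelled 50 ng carried Dam-lamin B1, and 14 cells with contradictory labels were not used. Dam-lamin B1 was also profiled in 15 paternal and 10 maternal pronuclei taken out of their zygotes. Further pronuclei came from zygotes given mRNA of the histone demethylase Kdm5b, in wild-type form (19 paternal, 19 maternal) or mutant form (6 paternal, 13 maternal). Whole zygotes with Dam-lamin B1 received wild-type (14) or mutant (9) Kdm5b, wild-type (12) or mutant (10) Kdm4d, another histone demethylase, or were kept in aphidicolin (9), an inhibitor of DNA replication, or in its solvent DMSO (11).

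The methyltransferase was supplied to embryos and oocytes as injected mRNA. It carried an auxin-inducible degron and was injected with mRNA for the auxin receptor TIR1 and a membrane-targeted EGFP. In oocytes, zygotes, 2-cell and 8-cell stages and with Kdm5b it was free of auxin for 6 to 8 h. The Dam-lamin B1 mRNA was given at 5 ng/µl to oocytes, zygotes and embryos with Kdm5b, at 10 ng/µl for the 2-cell stage and at 20 ng/µl for the 8-cell stage. The Dam mRNA was given at 20 ng/µl to oocytes and zygotes and at 40 ng/µl for the later stages, and Kdm5b mRNA at 2 µg/µl. Within a construct the dose was thus the same for oocytes and zygotes, and with Dam also for the 2-cell and 8-cell stages. The other steps between embryo stages and every comparison of the constructs cannot be told apart from the dose. For Kdm4d, aphidicolin or DMSO zygotes and for pronuclei without Kdm5b the sources used here give neither dose nor auxin-free time, for the oocytes labelled 20 ng and 50 ng they give no auxin-free time, and they do not say which changes make the 2 demethylases mutant. The strain label was C57BL/6 for oocytes and pronuclei, a cross of C57BL/6 females with CAST/EiJ males for zygotes, 2-cell and 8-cell embryos, and a cross of 129/Sv females with CAST/EiJ males for ES cells, while the embryo protocol names F1 (CBAxC57BL/6J) females. Inner cell mass and trophectoderm, the blastocyst tissues whose deposited domain lists are used below, had 3 population samples each with Dam-lamin B1. Their strain label was the cross of C57BL/6 females with CAST/EiJ males. Their mRNA was given at 100 ng/µl, above every dose given here for single cells. DamID reads DNA, so the cell types could not be checked against RNA markers. Mothers, litters and days are not named in the labels. Whole zygotes and pronuclei were compared as separate samples, so that each p measures only the spread between these samples. Cells of the other stages may share embryos, animals or a culture, and stages were described without a test.

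Pluripotency is the capacity of inner cell mass and naive ES cells to form all tissues of the embryo. Pou5f1 (Oct4), Sox2 and Nanog are the core transcription factors, which bind many enhancers together. Klf4, Esrrb, Tfcp2l1, Prdm14 and Tbx3 belong to the circuit that holds ES cells in the naive state. Zfp42 (Rex1) is a marker of that state, and Dppa3 (Stella) is a maternal factor that protects the maternal genome from demethylation in the zygote. Chromatin at the lamina is typically gene-poor and weakly transcribed, and lamina-associated domains (LADs) differ in part between cell types.

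The upstream sequences of 4 members are shown because these genes stand for the 4 classes of blastocyst LAD membership described next. RefSeq promoters (GRCm38.p6) matched 7 of the 10 genes by symbol, and Prdm14, Dppa3 and Tbx3 had no entry. Each run gives the 250 bases before the annotated start, 5′ to 3′ on the gene's strand. Capitals mark GATC, the site that Dam methylates, and the octamer core ATGCAAA or its reverse complement TTTGCAT, a motif of POU factors. The octamer search was chosen after the data were seen.
Pou5f1, in neither LAD list, chr17:35505782-35506031, plus strand: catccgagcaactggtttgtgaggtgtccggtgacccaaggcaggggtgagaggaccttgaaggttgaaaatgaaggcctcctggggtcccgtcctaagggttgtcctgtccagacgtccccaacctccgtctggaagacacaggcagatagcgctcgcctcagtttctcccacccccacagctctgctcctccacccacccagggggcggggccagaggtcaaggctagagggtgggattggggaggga
Nanog, in the ICM list, chr6:122707239-122707488, plus strand: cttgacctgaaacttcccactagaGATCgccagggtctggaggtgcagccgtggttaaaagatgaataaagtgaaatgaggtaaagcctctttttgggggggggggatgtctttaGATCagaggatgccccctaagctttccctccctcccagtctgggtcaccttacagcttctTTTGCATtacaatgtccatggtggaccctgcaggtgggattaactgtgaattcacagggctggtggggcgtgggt
Sox2, in the TE list, chr3:34649745-34649994, plus strand: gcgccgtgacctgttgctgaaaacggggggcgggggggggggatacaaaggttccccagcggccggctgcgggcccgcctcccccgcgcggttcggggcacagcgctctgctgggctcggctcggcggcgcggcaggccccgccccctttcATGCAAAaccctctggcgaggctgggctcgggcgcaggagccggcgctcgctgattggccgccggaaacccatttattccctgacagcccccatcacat
Zfp42, in both lists, chr8:43307010-43307259, minus strand: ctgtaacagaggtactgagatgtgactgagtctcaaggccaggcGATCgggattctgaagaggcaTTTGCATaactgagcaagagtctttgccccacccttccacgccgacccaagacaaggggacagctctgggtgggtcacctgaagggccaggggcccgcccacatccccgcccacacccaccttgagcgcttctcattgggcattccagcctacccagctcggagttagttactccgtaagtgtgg
The GATC site was present in 5 of the 10 promoters listed for the 7 genes, and in 41.9% of 32851 promoters of the same length taken one by one. Counted per gene it was upstream of 4 of the 7, and at Pou5f1 only before a second start whose sequence is not printed. The octamer core, on either strand, was present upstream of 3 genes, Nanog, Sox2 and Zfp42, and in 4.12% of all promoters. The 2 starts listed for Nanog lie 76 bases apart and share 1 octamer core, which was counted once. It began 75 bases upstream of the first Nanog start, 99 bases upstream of Sox2 and 185 bases upstream of Zfp42. These matches describe letters only. The OE values below cover whole bins of 100 kb and do not resolve a promoter.

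Blastocyst LADs set the members apart from each other. The deposited LAD coordinates of the inner cell mass (ICM), which forms the embryo proper, and of the trophectoderm (TE), which forms the placenta, are 1 list each, so membership carries no error. A bin was counted in a list if at least 50% of it was covered. Nanog (chromosome 6, 122700001 to 122800000) and Dppa3 (122600001 to 122700000 on the same chromosome) lie in neighbouring bins, and both were in ICM LADs only, a class that held 8.23% of all bins. Sox2 (chromosome 3, 34600001 to 34700000) was in a TE LAD only, as were 9.47% of bins. Zfp42 (chromosome 8, 43300001 to 43400000) was in both lists, as were 50.3%. The other 6 members were in neither, as were 32% of bins. These are Pou5f1 (chromosome 17, 35500001 to 35600000), Klf4 (chromosome 4, 55500001 to 55600000), Esrrb (chromosome 12, 86400001 to 86500000), Tfcp2l1 (chromosome 1, 118600001 to 118700000), Prdm14 (chromosome 1, 13100001 to 13200000) and Tbx3 (chromosome 5, 119600001 to 119700000). Among bins taken once per protein-coding gene the shares were 27.2% in both, 7.06% in ICM only, 6.03% in TE only and 59.7% in neither. When any overlap was counted in place of 50%, 4 members were again in at least 1 list.

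The class reached beyond the gene bin in most cases. All 11 bins around Nanog and around Dppa3 were in ICM LADs, and 4 of 11 in each window were also in TE LADs. All 11 bins around Sox2 were in a TE LAD and none in an ICM LAD. All 11 around Zfp42 were in both. None of the 11 bins around Pou5f1, Esrrb or Tbx3 was in either list. Prdm14 was outside both lists with 7 of its 11 bins in ICM LADs, so it lay in a gap between them. The window of Klf4 had 4 ICM and 6 TE bins, and that of Tfcp2l1 had 2 of each. Some bins hold more than the named gene. The Pou5f1 bin holds 6 protein-coding midpoints in the gene-dense major histocompatibility region, the Nanog bin also holds the glucose transporter gene Slc2a3, and the Dppa3 bin also holds Gdf3, so values there cannot be assigned to 1 gene.

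Other lists were counted the same way. Of 30 further genes of the pluripotency network, 5 were in both lists, 6 in ICM LADs only, 0 in TE LADs only and 19 in neither. Gdf3 shares the bin of Dppa3 and adds no separate value. Of 13 trophectoderm genes 1 was in both, 1 in ICM only, 1 in TE only and 10 in neither, and of 13 primitive endoderm genes 3, 1, 2 and 7.

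Depth limits what a single bin can show. Whole counts were recovered from the ratios for every cell, with 100% of values in 23898 bins within 0.02 counts of a whole number. The sources used here do not say whether a count is a read or a fragment end. They ran from 23563 to 1091058 counts per cell, with a median of 71769. Zygotes with Dam-lamin B1 had a median of 41810 counts, 1.75 per bin, and zygotes with Dam 94294, 3.95 per bin. In the zygotes with Dam-lamin B1, 1 count at a member bin was worth an OE of 0.331 to 0.557 in the median cell. A value of 0 allows up to 3 counts, an OE of 0.992 to 1.67, so it does not show that the bin was away from the lamina. The LAD contrast of a cell, the log2 ratio of its mean OE inside shared ICM and TE LADs to that outside every LAD, averaged 0.64 for the Dam-lamin B1 zygotes and -0.74 for those with Dam. In oocytes it averaged -0.17 with Dam-lamin B1 and was below 0 in 44 of 56 cells, so those cells went against the pattern of a lamina label, as did 16 of 17 oocytes labelled 20 ng and 23 of 23 labelled 50 ng. It was also below 0 in 1 of 47 cells of the 2-cell stage and 1 of 41 of the 8-cell stage. Without those 2 cells, a choice made after the data were seen, the mean OE of a member moved by at most 6.73%.

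Some cells of consecutive replicate numbers stood apart from the rest of their group across the genome. They were found after the data were seen, from the first principal component of 1 Mb means in 23751 bins away from the members, as the run of at least 5 numbers that accounted for at least 50% of that component. With Dam-lamin B1 these were 5 of 19 zygotes, 13 of 47 cells of the 2-cell stage (numbers 24 to 36) and 15 of 41 of the 8-cell stage, and with Dam 15 of 43 oocytes and 8 of 45 cells of the 2-cell stage. The run accounted for 57.7%, 76.9%, 56.5%, 81.2% and 71.8% of the component, and no run did so in oocytes with Dam-lamin B1 or zygotes with Dam. The labels give no batch for these numbers. The LAD contrast averaged 0.22 in those 13 with Dam-lamin B1 at the 2-cell stage and 0.98 in the other 34, and its part in the member values was not tested. Stage results that rest on such cells are given with and without them. The other single-cell groups (ES cells, 8-cell stage with Dam, oocytes labelled 20 ng or 50 ng, treated zygotes and pronuclei) were not searched.

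In whole zygotes the 2 constructs could be compared over separate embryos, which asks where contact with the lamina differs from access to Dam itself. All 10 member bins had a lower mean with Dam-lamin B1 than with Dam, and 7 of 10 passed the test (limma on log2(OE + 0.25), Benjamini-Hochberg adjusted p under 0.05 over 23969 bins), none of them higher. Of all bins tested, 59.8% passed, 37.8% as lower and 22.0% as higher, and 37.7% had a value above 0. The groups overlapped at every member, and 0.0% of bins had groups that did not overlap. The median log2 difference over the members was -0.93 and over all bins -0.36. The groups differ in depth, and with every zygote thinned to the same number of counts 5 of 10 members passed, all lower, where 37.5% of 23886 bins passed, 17.8% as lower and 19.7% as higher. The median of all bins was then -0.21. The 5 were Pou5f1, Sox2, Esrrb, Dppa3 and Tbx3. Without the 5 zygotes that stood apart, 7 of 10 members passed as lower, as did 28.1% of bins.

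Among the core factors, Pou5f1 had an OE from 0.0 to 2.19 with a median of 0.395 in 19 zygotes with Dam-lamin B1, and from 0.0 to 5.02 with a median of 1.49 in 46 with Dam. Its mean was 0.563 ± 0.685 (SD, n = 19) against 1.53 ± 1.04 (n = 46). The zygotes with Dam-lamin B1 lay low but overlapped those with Dam, and 9 of 19 were at 0. The limma difference was -1.39 (SE 0.278, adjusted p = 1.02e-05), with 17 of 19 zygotes below the Dam mean. Sox2 ran from 0.0 to 2.94 (median 0.662) with Dam-lamin B1 and from 0.219 to 6.62 (median 1.57) with Dam, the highest single value of any member in zygotes. Its means were 0.938 ± 0.973 and 1.83 ± 1.38, and the limma difference was -1.06 (SE 0.266, adjusted p = 0.000356), with 15 of 19 zygotes below the Dam mean. Nanog ran with Dam-lamin B1 from 0.0 to 2.22 with a median of 1.07 and a mean of 1.06 ± 0.572, against 1.78 ± 1.17 with Dam. Its difference of -0.53 (SE 0.258, limma adjusted p = 0.0651) did not pass at 100 kb, and passed over 300 kb (-0.55, adjusted p = 0.000847).

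**Figure D1:**
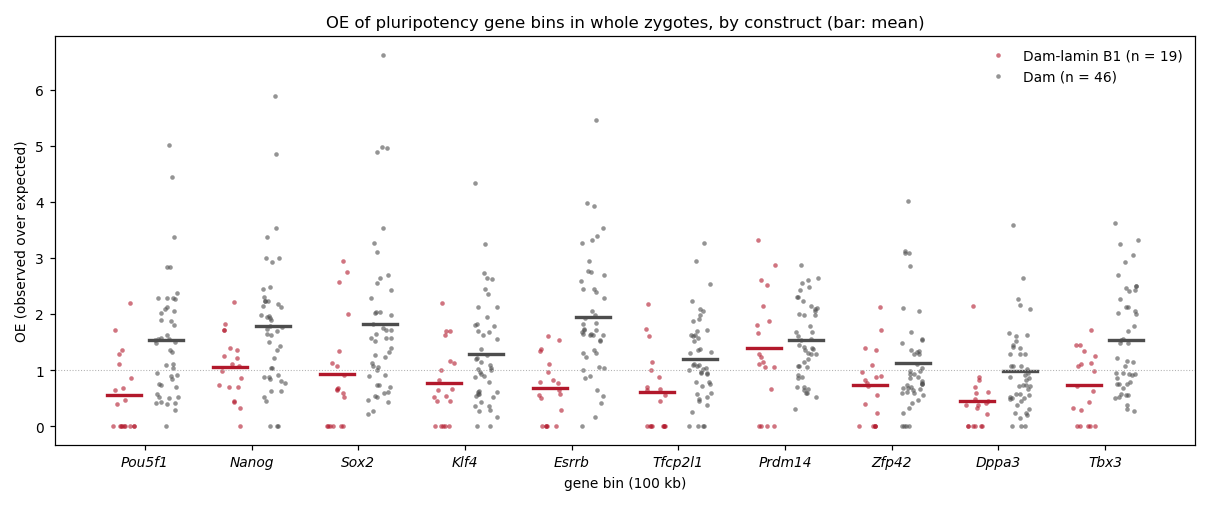
OE of the 10 gene bins in whole zygotes. Each point is 1 zygote, red for Dam-lamin B1 (n = 19) and grey for Dam (n = 46), bars are means, and the dotted line is an OE of 1. The groups overlap at every gene, and the red mean is below the grey mean at all 10, least at Prdm14 (1.39 against 1.53).

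Of the 5 naive-state factors, Esrrb, Tbx3, Tfcp2l1 and Klf4 passed as lower and Prdm14 did not pass. Esrrb, an orphan nuclear receptor, had means of 0.677 ± 0.546 with Dam-lamin B1 and 1.95 ± 1.09 with Dam, a difference of -1.36 (SE 0.26, limma adjusted p = 4.63e-06), with 19 of 19 zygotes below the Dam mean. Its lowest, median and highest values were 0.0, 0.637 and 1.61 with Dam-lamin B1 and 0.0, 1.71 and 5.46 with Dam. Tbx3, a T-box factor, had 0.73 ± 0.589 against 1.54 ± 0.917 and differed by -1.02 (SE 0.268, adjusted p = 0.000662) with 18 of 19 zygotes below the Dam mean. Tfcp2l1, a grainyhead-like factor downstream of LIF signalling, had 0.608 ± 0.677 against 1.2 ± 0.752 and differed by -0.98 (adjusted p = 0.00216). The Tfcp2l1 difference did not pass at equal counts (-0.84, adjusted p = 0.0691). Klf4, a Krüppel-like factor, had 0.766 ± 0.669 against 1.29 ± 0.921. It passed as deposited (-0.7, adjusted p = 0.0247), but at equal counts its difference was -0.1 (adjusted p = 0.844). Prdm14, a PR-domain repressor of differentiation genes, had the highest mean of all members with Dam-lamin B1, 1.39 ± 1.01, with values from 0.0 to 3.32 and a median of 1.23. With Dam it had 1.53 ± 0.673, and the difference of -0.43 (adjusted p = 0.137) did not pass.

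Of the 2 markers, Dppa3 passed as lower and Zfp42 did not pass. Dppa3 had the lowest mean of all members with Dam-lamin B1, 0.441 ± 0.506, with a median of 0.375, and 18 of 19 zygotes lay below the Dam mean of 0.981 ± 0.738. The single zygote above an OE of 1 reached 2.15. The limma difference was -0.88 (SE 0.294, adjusted p = 0.00716). Zfp42, inside its blastocyst LAD, had 0.735 ± 0.625 against 1.13 ± 0.899. Its values ran from 0.0 to 2.12 (median 0.778) and from 0.0 to 4.01 (median 0.865), and the difference of -0.55 (SE 0.286, adjusted p = 0.087) did not pass. Over 300 kb, where 9 of 10 members passed as lower (as did 46.8% of bins), the Zfp42 difference was 0.07 (adjusted p = 0.704), the only member with a value above 0 in that window.

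Of the 30 further network genes, 23 passed as lower with Dam-lamin B1 and 0 as higher (37.8% and 22.0% of bins), with a median difference of -0.84. At equal counts 10 of 30 passed as lower and 0 as higher (17.8% and 19.7% of bins). The 5 with the largest differences were Stat3, the transducer of LIF signalling (-1.52), the TGF-beta ligand Nodal (-1.41), Dppa2 (-1.31), the Nodal co-receptor Tdgf1 (-1.28) and the RNA-binding protein gene Lin28a (-1.19), each with a limma adjusted p of at most 7.27e-05. At equal counts Stat3, Nodal and Tdgf1 passed, while Lin28a (limma adjusted p = 0.054) and Dppa2 (0.0769) did not. Dppa2 was among them although its bin lies in both blastocyst LAD lists. Of the other 2 lists, 10 of 13 trophectoderm genes passed as lower (median -0.65, with Krt8 and Krt18 in 1 bin) and 7 of 13 of primitive endoderm (median -0.69), with 0 higher. At equal counts these were 3 and 5 of 13, again with 0 higher.

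Across stages, the member bins lay further apart between the constructs at later stages, as a description over cells that may share embryos. With Dam-lamin B1 the median of the 10 member means was 1.12 in oocytes, 0.733 in zygotes, 0.871 at the 2-cell stage, 0.758 at the 8-cell stage and 0.655 in ES cells, where the median of all bins was 0.872, 0.903, 0.862, 0.896 and 0.93. With Dam it was 1.34 in oocytes, 1.53 in zygotes, 1.92 at the 2-cell and 3.07 at the 8-cell stage, against 0.995, 0.956, 0.889 and 0.582 over all bins. Without the cells that stood apart the median with Dam-lamin B1 was 0.757 in zygotes, 0.645 at the 2-cell stage and 0.8 at the 8-cell stage, and with Dam 1.49 in oocytes and 1.85 at the 2-cell stage. In the 13 cells of the 2-cell stage with Dam-lamin B1 that stood apart it was 1.35. At the 8-cell stage all 10 members had a higher mean with Dam than with Dam-lamin B1, as did 35% of bins, and 9 of 10 reached a ratio of 1.5, taken here and below on means plus 0.25, as did 25.1%. At the 2-cell stage 9 of 10 reached it, all but Sox2, where 27.4% of bins did (8 of 10 without the cells that stood apart, where 30% did), and in oocytes only Klf4 did, where 15.7% of bins did. Only 4 cells carry Dam at the 8-cell stage, and leaving out any 1 of them left all 10 members higher with Dam.

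**Figure D2:**
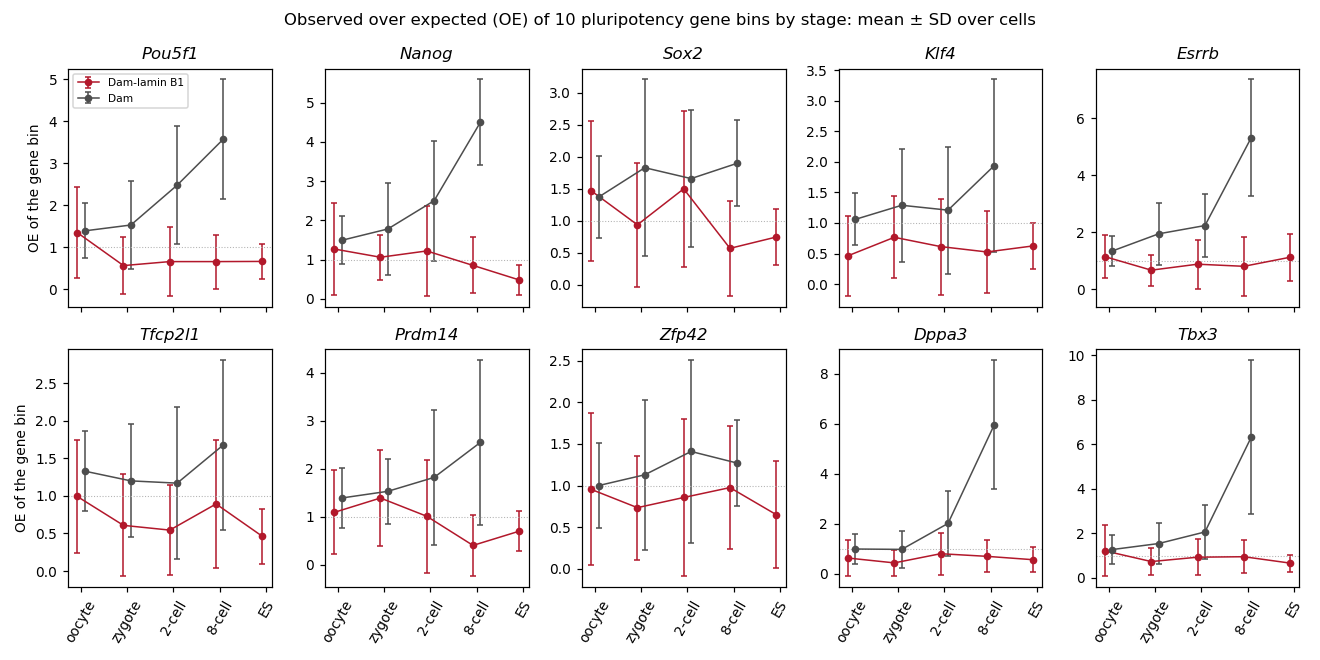
Mean OE of each gene bin by stage with Dam-lamin B1 (red) and Dam (grey), with bars of 1 SD over cells and vertical scales that differ between genes. The grey means rise above the red ones from the zygote to the 8-cell stage, where Tbx3 has 6.32 with Dam and 0.947 with Dam-lamin B1.

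The core factors took different courses with Dam-lamin B1. Pou5f1 had 1.35 ± 1.08 (SD, n = 56) in oocytes and then 0.563 in zygotes, 0.658 ± 0.813 (n = 47) at the 2-cell stage, 0.658 ± 0.644 (n = 41) at the 8-cell stage and 0.662 ± 0.421 (n = 10) in ES cells. The mean was thus highest in oocytes, but the 2-cell value joins 2 unlike sets of cells. It was 1.25 ± 0.719 in the 13 cells that stood apart, none of them at 0, and 0.432 ± 0.736 in the other 34, of which 19 were at 0. The step from oocyte to zygote was a log2 ratio of -0.97, and Pou5f1 and Esrrb were the members at least 1.5-fold lower there, as were 15.9% of bins. Without the zygotes that stood apart it was Pou5f1 alone (-0.95, with Esrrb at -0.47), where 14.2% of bins were lower by as much. Nanog had 1.27 ± 1.18 in oocytes, 1.06 ± 0.572 in zygotes, 1.22 ± 1.14 at the 2-cell stage, 0.852 ± 0.714 at the 8-cell stage and 0.481 ± 0.382 in ES cells, its lowest level. Its 2-cell values lay between 1.51 and 3.74 in the 13 cells that stood apart (mean 2.63 ± 0.709) and between 0.0 and 2.81 in the other 34 (mean 0.677 ± 0.731). Without the cells that stood apart at either stage, Nanog had 0.677 at the 2-cell and 0.83 at the 8-cell stage, so that the direction of this step depends on them. Over all cells Sox2 was highest at the 2-cell stage (1.5 ± 1.22, from 0.0 to 5.7 with a median of 1.35). It then had 0.57 ± 0.74 at the 8-cell stage, where 19 of 41 cells were at 0. That step, a log2 ratio of -1.09, was the largest of any member between neighbouring stages with Dam-lamin B1, and 17.1% of bins were at least 1.5-fold lower there. Prdm14 (-0.95) was the other such member. Without the cells that stood apart Sox2 (-1.18) and Prdm14 (-0.92) were again the 2 members lower by as much, as were 19.5% of bins. Tfcp2l1 (0.76) was then higher by as much, as were 25.1% of bins. In oocytes, zygotes and ES cells Sox2 had 1.47, 0.938 and 0.747. Its 2-cell mean was 1.89 ± 0.62 in the 13 cells that stood apart and 1.35 ± 1.36 in the other 34. The latter is below the oocyte mean, so which stage is highest depends on these cells. From the 8-cell stage to ES cells Nanog (-0.59) and Tfcp2l1 (-0.68) were at least 1.5-fold lower, as were 16.0% of bins. Without the cells that stood apart Tfcp2l1 alone was (-0.81, with Nanog at -0.56), as were 18.3% of bins. From the zygote to the 2-cell stage Dppa3 (0.61) was at least 1.5-fold higher, as were 21.2% of bins. Without the cells that stood apart no member was (Dppa3 at 0.3), where 22.1% of bins were. Nanog was then lower by as much (-0.67), as were 31.1% of bins.

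Among the other members, Prdm14 went from 1.01 ± 1.18 at the 2-cell stage to 0.402 ± 0.643 at the 8-cell stage, with 26 of 41 cells at 0, and had 0.699 in ES cells. Klf4 was low throughout, from 0.464 in oocytes to 0.766 in zygotes. Esrrb was between 0.677 in zygotes and 1.15 in oocytes, and Tfcp2l1 between 0.462 in ES cells and 0.993 in oocytes. Tbx3 had 1.21 in oocytes and between 0.66 and 0.947 later. Dppa3 had 0.635 in oocytes, 0.441 in zygotes, 0.808 at the 2-cell stage, 0.703 at the 8-cell stage and 0.568 in ES cells, and Zfp42 lay between 0.651 in ES cells and 0.976 at the 8-cell stage. At the 2-cell stage the 13 cells that stood apart and the other 34 had 1.64 and 0.596 for Esrrb, 1.53 and 0.531 for Dppa3, and 1.45 and 0.725 for Tbx3. At the 8-cell stage the 15 that stood apart and the other 26 had 0.351 and 0.906 for Dppa3, 1.33 and 0.77 for Zfp42, and 0.319 and 0.645 for Klf4. These levels therefore depend on which cells are averaged. When the 5 stages of each gene were ordered by their means, none of the 40 neighbouring pairs was separated by more than its SDs with Dam-lamin B1, with or without the cells that stood apart. In the oocytes labelled 20 ng and 50 ng the member means ran from 0.772 to 1.55 and from 0.896 to 1.42.

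With Dam alone, 1 of 30 neighbouring pairs of stages was separated by more than its SDs, namely Dppa3 from the 2-cell to the 8-cell stage. That pair rests on 4 cells of the 8-cell stage. Its groups overlapped, with 2.12 as the lowest 8-cell value and 5.94 as the highest 2-cell value. No share over all bins is given beside these counts of pairs for either construct, so they are not read as particular to the members. Dppa3 had 0.996 ± 0.612 in 43 oocytes, 0.981 ± 0.738 in 46 zygotes, 2.02 ± 1.31 in 45 cells of the 2-cell stage and 5.97 ± 2.59 in 4 cells of the 8-cell stage. The log2 ratio from zygote to 2-cell was 0.88, above 99.8% of all bins at that step. Of the members only Dppa3 and Pou5f1 (0.61) were at least 1.5-fold higher at that step, as were 2.14% of bins. From the 2-cell to the 8-cell stage 4 members were higher by that much, Tbx3 (1.51), Dppa3 (1.46), Esrrb (1.16) and Nanog (0.79), as were 13.4% of bins, and 39.8% of bins were lower by as much. The 8-cell values were 2.43, 4.38, 9.61 and 8.86 for Tbx3, 7.36, 6.8, 2.12 and 7.61 for Dppa3, 4.99, 7.21, 6.49 and 2.59 for Esrrb, and 5.13, 4.8, 2.88 and 5.17 for Nanog, in the same 4 cells in the same order. All of these exceed 2, but the cell that is highest for Tbx3 is the lowest for Dppa3 and Nanog. Zfp42 was the member with a lower mean at the 8-cell than at the 2-cell stage, with 1.41 ± 1.1 and 1.27 ± 0.521.

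The bins around each gene show whether it stood out locally. With Dam, 9 of 10 members were above the mean of their 10 flanking bins at the 8-cell stage, where 58.2% of all bins were below their flanks, and the median log2 ratio of gene bin to flanks, with no pseudocount, was 1.58 over the members and -0.24 over all bins. Earlier stages had smaller ratios, 0.22 for oocytes, 0.29 for zygotes and 0.58 for the 2-cell stage. With Dam-lamin B1 the gene bins were below their flanks in 4 of 10 members in oocytes (53.2% of all bins), 5 in zygotes (53.5%), 4 at the 2-cell stage (54.5%), 8 at the 8-cell stage (54.6%) and 6 in ES cells (52.5%). Without the cells that stood apart the counts were 5 in zygotes, 6 at the 2-cell stage and 8 at the 8-cell stage. The median ratio at the 8-cell stage was -0.48 over the members and -0.07 over all bins. The counts at some stages depended on the width of the flanks. With 2 flanking bins on each side they were 2 of 10 in oocytes (53.2% of all bins) and 5 in zygotes (52.3%). They were 1 at the 2-cell stage (53.3%), 8 at the 8-cell stage (53.6%) and 7 in ES cells (52.1%).

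Nanog and Dppa3 lay in a low stretch of their ICM domain at the 8-cell stage, which reached 200 kb from Nanog towards lower coordinates. With Dam-lamin B1 the Nanog bin (0.852), the Dppa3 bin (0.703) and the bin beyond it (0.651) were the 3 lowest of the 11 in the Nanog window. The flanks of Nanog averaged 0.637 at the 2-cell stage and 1.35 at the 8-cell stage, and the log2 ratio of gene to flanks was 0.93 and -0.66. Without the cells that stood apart the flanks averaged 0.547 and 1.24 and the ratio was 0.31 and -0.58, while in the 13 cells of the 2-cell stage that stood apart it was 1.59. In ES cells it was -1.02. The Clec4 lectin gene bins 200 and 300 kb beyond Nanog had 1.98 and 2.04 at the 8-cell stage and 0.641 and 0.732 at the 2-cell stage. The ratio at Dppa3 was 0.19 at the 2-cell stage, -1.0 at the 8-cell stage and -0.77 in ES cells, over flanking bins that are mostly the same, and -0.11 and -0.44 at the first 2 of these without the cells that stood apart. Within single cells, both bins had an OE of at least 1 in 12 of 47 cells of the 2-cell stage and in 0 of 19 zygotes, and Nanog alone reached it in 10 of those 47 cells and in 10 of the 19 zygotes. Of the 12 cells with both, 9 were among the 13 that stood apart and 3 among the other 34. At the 8-cell stage the counts were 6 with both, 10 with Nanog alone and 9 with Dppa3 alone among 41 cells.

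**Figure D3:**
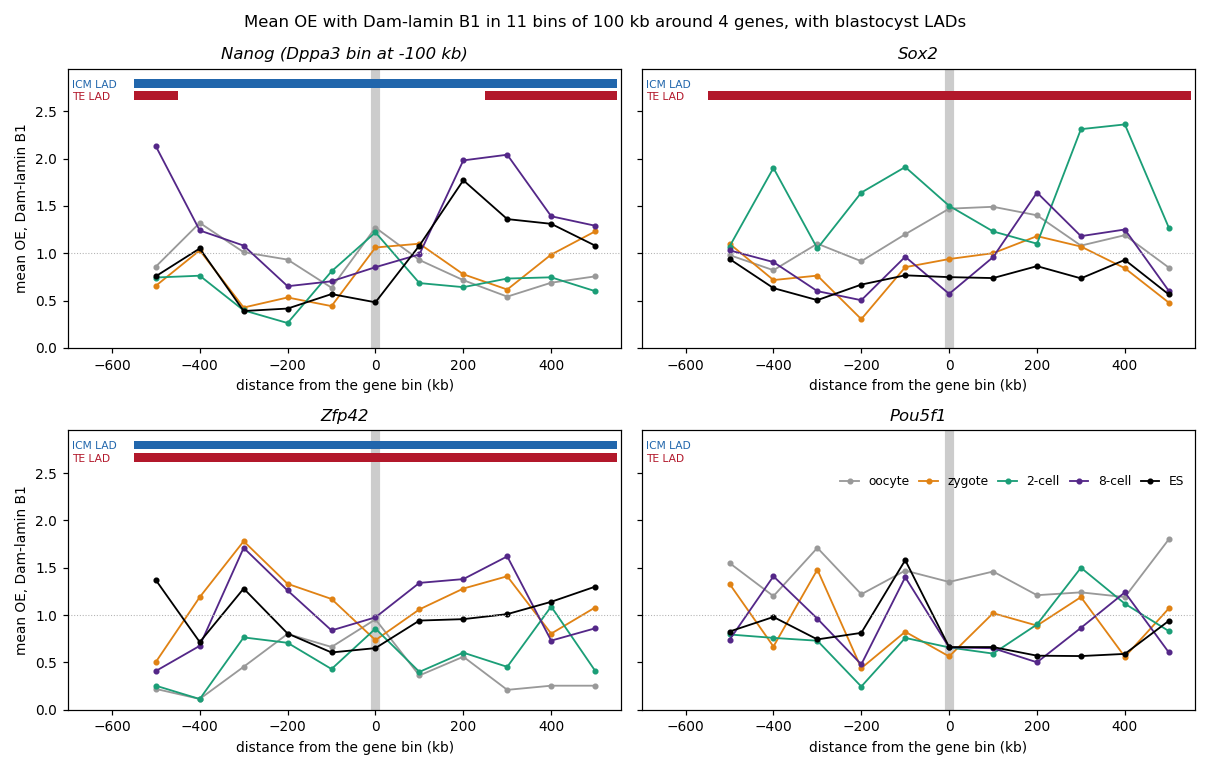
Mean OE with Dam-lamin B1 in 11 bins of 100 kb centred on Nanog, Sox2, Zfp42 and Pou5f1, by stage, with ICM (blue) and TE (red) LAD bins as bars on top. The 8-cell line is lowest at Nanog and the 2 bins to its left (0.651 to 0.852), the 2-cell line lies high over Sox2, and the oocyte and 2-cell lines lie low around Zfp42.

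Sox2 is the only protein-coding gene with its midpoint in its 11 bins. Over all cells, the gene bin and its flanks both had their highest mean at the 2-cell stage. Its flanks had 1.1 in oocytes, 0.831 in zygotes, 1.58 at the 2-cell stage, 0.962 at the 8-cell stage and 0.734 in ES cells. The 2-cell values were high over most of the window, up to 2.36 at 400 kb downstream. In the 13 cells of that stage that stood apart, the gene bin had 1.89 and its flanks 1.11 (log2 ratio 0.77). In the other 34 these were 1.35 and 1.77 (-0.38), so the set with the higher gene bin had the lower flanks. With Dam at the 8-cell stage the gene bin had 1.9 and its flanks 0.488, a log2 ratio of 1.96, below those of Dppa3 (2.09) and Tbx3 (2.08).

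Over all cells of a stage the mean at Zfp42 stayed within 0.651 to 0.976 while its flanks ranged more widely. The flanks had a mean OE with Dam-lamin B1 of 0.389 in oocytes, 1.16 in zygotes, 0.522 at the 2-cell stage, 1.08 at the 8-cell stage and 1.01 in ES cells. The gene bin had 0.955, 0.735, 0.857, 0.976 and 0.651 in the same order. It was thus above its flanks in oocytes (log2 ratio 1.3) and 2-cell embryos (0.71) and below them in zygotes (-0.66), 8-cell embryos (-0.15) and ES cells (-0.64). At the 8-cell stage the 15 cells that stood apart had 1.33 in the gene bin and a ratio of 0.17. The other 26 had 0.77 and -0.41, so the sign there depends on these cells. At the 2-cell stage the ratio was 0.13 in the 13 that stood apart and 0.9 in the other 34. With Dam the Zfp42 bin was above its flanks at every stage, by 0.61 in oocytes, 0.78 in zygotes, 1.24 at the 2-cell and 1.61 at the 8-cell stage.

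Outside LADs, Pou5f1 was below its flanks with Dam-lamin B1 at every stage (log2 ratio -0.06 in oocytes, -0.75 in zygotes, -0.32, -0.43 and -0.32 later), and with Dam as well, by -0.13 to -0.4, the only member to be so with Dam at the 8-cell stage (-0.19). With Dam-lamin B1 at the 8-cell stage the ratio was 0.66 in the 15 cells that stood apart and -0.86 in the other 26. Its neighbouring bins were themselves high with Dam at the 8-cell stage, up to 6.88. Esrrb, Tbx3 and Klf4 were above their flanks with Dam at the 8-cell stage, by 1.27, 2.08 and 0.84. Esrrb was above its flanks with Dam-lamin B1 at the 2-cell stage (0.92), the 8-cell stage (0.55) and in ES cells (0.49), where its own level of 1.13 ± 0.83 was the highest of all members. Prdm14 was above its flanks in zygotes (1.09) and below them at the 8-cell stage (-1.08), and 2 bins at lower coordinates, both in an ICM LAD, were high at the 2-cell stage. The bin at 400 kb, which holds Sulf1, had 2.5, and that at 500 kb had 2.52.

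In pronuclei, which carry the paternal and maternal genomes separately, the comparison asks whether the parental copies differ. None of the 10 member bins passed limma (0 of 10 also at an unadjusted p under 0.05), where 2.1% of 23964 bins passed (1.82% higher and 0.275% lower in the paternal pronucleus) and 16.3% had an unadjusted p under 0.05. Of the members 5 lay above 0 and 5 below, and 62.1% of bins lay above 0. Zfp42 had the largest difference. Its paternal values ran from 0.298 to 1.92 with a median of 1.29 in 15 pronuclei, and its maternal values from 0.0 to 2.52 with a median of 0.621 in 10. The paternal pronuclei were the higher ones, with overlap, and 13 of 15 lay above the maternal mean. The means were 1.21 ± 0.488 and 0.718 ± 0.709, with a difference of 0.82 (SE 0.49, limma adjusted p = 0.408). Over 300 kb the difference at Zfp42 was 1.2 (SE 0.33, adjusted p = 0.0209) and passed, where 5.41% of bins passed, 4.73% as higher in the paternal pronucleus and 0.679% as lower. The 2 bins next to Zfp42 in that window differed from each other, with 2.43 in paternal and 0.379 in maternal pronuclei 100 kb towards higher coordinates, and 0.565 and 0.583 on the other side.

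For the other members the limma differences lay within -0.34 to 0.21. Pou5f1 had 0.479 ± 0.423 in paternal and 0.586 ± 0.356 in maternal pronuclei (difference -0.34, limma adjusted p = 0.762) and was the lowest member in both. Nanog had 0.86 ± 0.52 and 1.06 ± 0.876, Sox2 0.785 ± 0.69 and 1.04 ± 0.97, and Dppa3 0.544 ± 0.528 and 0.734 ± 0.947. Tbx3 had 0.992 ± 0.574 and 0.854 ± 0.62. The differences of Klf4, Esrrb, Tfcp2l1 and Prdm14 lay between -0.04 and 0.21. Median depth was 144974 counts in paternal and 83404 in maternal pronuclei, and at equal counts 0 of 10 members passed and Nanog, Klf4, Tfcp2l1 and Dppa3 had the opposite sign.

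**Figure D4:**
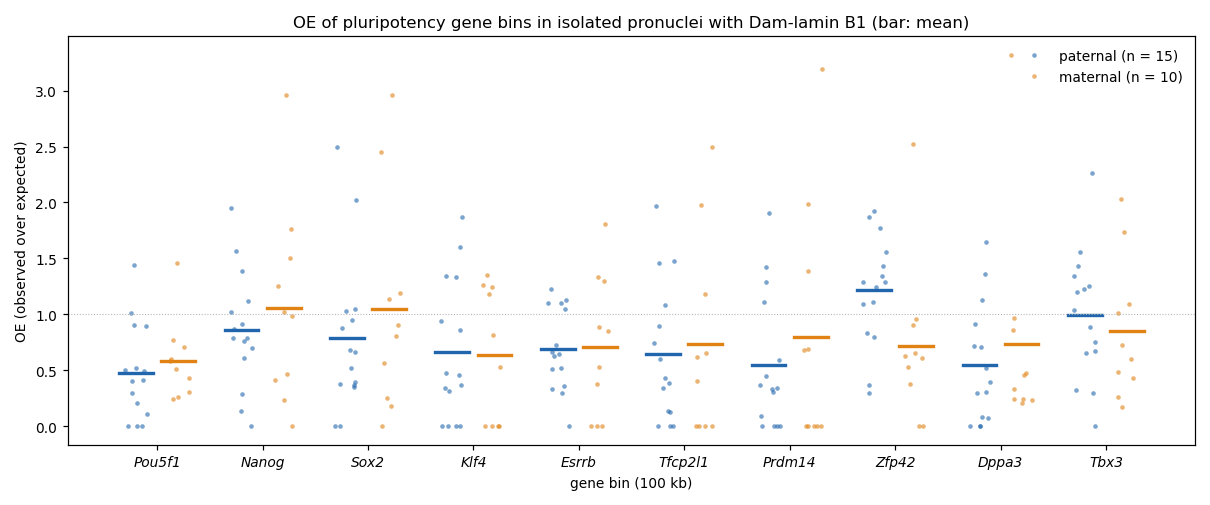
OE of the 10 gene bins in isolated pronuclei with Dam-lamin B1. Each point is 1 pronucleus, blue for paternal (n = 15) and orange for maternal (n = 10), and bars are means. Zfp42 shows the widest separation, 1.21 against 0.718, and the groups overlap at every gene.

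Kdm5b removes methyl groups from lysine 4 of histone H3 and wild type and mutant were compared here. In whole zygotes 0 of 10 member bins passed limma, as did 0.0% of all bins, while 17.1% of bins had an unadjusted p under 0.05. The members lay higher with wild-type Kdm5b in 9 of 10 cases, as did 65.4% of bins, and their median difference was 0.69 against 0.24 over all bins. Tbx3 differed most. Its lowest, median and highest values were 0.0, 0.901 and 1.74 in 14 zygotes with wild type and 0.0, 0.315 and 0.861 in 9 with mutant. The wild-type zygotes were the higher ones, with 12 of 14 above the mutant mean, and the means were 0.92 ± 0.535 and 0.313 ± 0.344 (difference 1.12, SE 0.402, limma adjusted p = 0.162). Prdm14 had 1.27 ± 0.607 and 0.605 ± 0.486 (0.94, adjusted p = 0.216), Esrrb 1.17 ± 0.619 and 0.592 ± 0.509 (0.88, adjusted p = 0.244) and Pou5f1 0.8 ± 0.446 and 0.435 ± 0.627 (0.83, adjusted p = 0.282), and these 4 members were the ones with an unadjusted p under 0.05. Nanog, Sox2, Klf4, Tfcp2l1 and Dppa3 differed by 0.72, 0.66, 0.29, 0.37 and 0.08. Zfp42, the member in both LAD lists, had 1.33 ± 0.891 and 1.34 ± 0.563 (-0.19, adjusted p = 0.815). The 2 groups also differed in depth, with medians of 216228 and 85761 counts. At equal counts no bin passed, and Klf4, Tfcp2l1 and Dppa3 had the opposite sign. The LAD contrast differed as well, with means of 0.31 ± 0.44 (below 0 in 4 of 14) and 1.02 ± 0.6. Its part in the member values was not tested.

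In isolated pronuclei no member passed either. In maternal pronuclei 0 of 10 passed (0.0% of bins), 1 had an unadjusted p under 0.05 (9.34% of bins) and all 10 differences were at or above 0 (64.1% of bins above 0), with a median of 0.57. Tbx3 again differed most, with a median of 0.635 and a range from 0.0 to 2.23 in 19 pronuclei with wild type, and a median of 0.0 and a range from 0.0 to 0.886 in 13 with mutant, of which 9 were at 0. Its means were 0.723 ± 0.618 and 0.176 ± 0.295 (difference 1.11, SE 0.43, limma adjusted p = 0.385), and 14 of 19 lay above the mutant mean. Dppa3 had 0.952 ± 0.845 and 0.377 ± 0.371 (0.83, adjusted p = 0.567). In paternal pronuclei 0 of 10 passed (0.0167% of bins), 0 had an unadjusted p under 0.05 (13.9%) and 7 differences were above 0 (55.1%). The largest was that of Esrrb with 1.19 ± 0.644 and 0.559 ± 0.22 (0.7, adjusted p = 0.429), and Tbx3 had 1.42 ± 0.966 and 1.28 ± 0.419 (-0.16, adjusted p = 0.881). The test of the difference between the pronuclei passed for 0 of 10 members and for 0.00417% of bins. For Tbx3 it gave -1.27 (SE 0.635, limma adjusted p = 0.825), the member with an unadjusted p under 0.05, as had 6.05% of bins. The mean LAD contrast was -0.09 with wild type and 0.54 with mutant in paternal pronuclei and 0.28 and 0.65 in maternal ones, and its part in the member values was not tested.

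**Figure D5:**
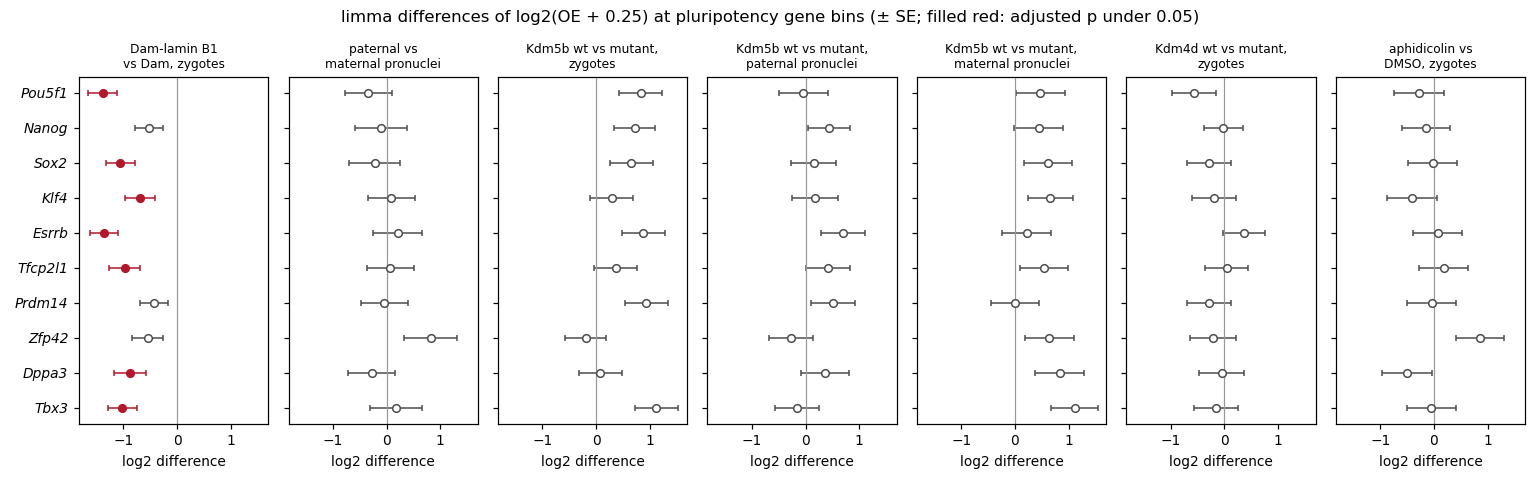
Differences of log2(OE + 0.25) with their SE at the 10 gene bins in 7 comparisons of zygotes or pronuclei. Filled red points passed an adjusted p of 0.05, which 7 members did for Dam-lamin B1 against Dam and 0 in the other panels, and points right of 0 are higher in the group named first.

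The other treatments gave no call at a member. For wild-type against mutant Kdm4d, which acts on methylated lysine 9 of histone H3, 0 of 10 passed (0.00418% of bins) and 0 had an unadjusted p under 0.05 (3.92% of bins). The differences ran from -0.57 for Pou5f1 (0.698 ± 0.662, n = 12, and 0.919 ± 0.385, n = 10) to 0.36 for Esrrb (1.04 ± 0.519 and 0.904 ± 0.633). Nanog had 1.12 ± 0.49 and 1.13 ± 0.453. Sox2, Klf4, Tfcp2l1, Prdm14, Zfp42, Dppa3 and Tbx3 lay between -0.29 and 0.04. For aphidicolin against DMSO 0 of 10 passed (0.00836% of bins) and 0 had an unadjusted p under 0.05 (5.51%). Zfp42 had the largest difference, 0.86 (SE 0.452, limma adjusted p = 0.896), with values from 0.536 to 3.62 in 9 zygotes with aphidicolin and from 0.0 to 2.6 in 11 with DMSO, and means of 1.68 ± 1.15 and 0.88 ± 0.766. The other members lay between -0.5 for Dppa3 and 0.18 for Tfcp2l1, with Pou5f1, Nanog, Sox2, Klf4, Esrrb, Prdm14 and Tbx3 inside that range.

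The patterns of the members across all 23 groups of cells were alike to differing degrees. Pearson's r of log2(mean OE + 0.25) between 2 members ran from 0.135 to 0.908 with a median of 0.744 over 45 pairs, over groups that share a construct, so that the contrast of Dam to Dam-lamin B1 enters every value. No value for pairs of other gene bins is given beside it, so this likeness is not read as particular to these genes. By the same measure the protein-coding gene bin on another chromosome most like Pou5f1 was that of Rrp1 (r = 0.964), for Nanog it was Ldhd (0.95), for Sox2 Fosl2 (0.887), for Klf4 Cacna1i (0.924), for Esrrb Micos13 (0.954), for Tfcp2l1 Cep89 (0.916), for Prdm14 Lsm14b (0.91), for Dppa3 Pecam1 (0.942) and for Tbx3 Atp1b2 (0.941). Zfp42 had the lowest best match, Rbm18 at 0.721.

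Counted per cell, the members in contact (an OE of at least 1) numbered 3.42 ± 1.68 of 10 per Dam-lamin B1 zygote, where 39% of all bins were in contact. Zygotes that had Dam alone gave 6.2 ± 1.49 members with such an OE, where 42.6% of bins reached it. With Dam alone it marks accessible chromatin and not contact with the lamina. At the 2-cell stage the members with an OE of at least 1 numbered 3.77 ± 2.11 with Dam-lamin B1, 37.7% beside 37.5% of all bins. They numbered 7.4 ± 1.27 with Dam, beside 40.4% of bins. The 13 cells that stood apart with Dam-lamin B1 had 6.0 ± 1.41 (42.3% of bins) and the other 34 had 2.91 ± 1.66 (35.7%). At the 8-cell stage the numbers were 3.17 ± 1.73 (38.2% of bins) and 9.0 ± 1.41 (33.9%), in oocytes 4.59 ± 1.63 (34.7%) and 6.56 ± 1.55 (45.3%), and in ES cells 2.4 ± 2.12 (41.2%). With every cell thinned to the same counts the members with Dam-lamin B1 numbered 2.84 in zygotes, 3.68 at the 2-cell stage, 3.17 at the 8-cell stage, 3.75 in oocytes and 3.4 in ES cells, beside 41.8%, 38.2%, 39.6%, 29.4% and 40.3% of bins. With Dam they numbered 5.46, 6.51, 8.5 and 4.93 in the first 4 of these, beside 43.4%, 41.5%, 35.4% and 43.2%. No cell with Dam-lamin B1 had all 10 members at an OE of at least 1. The highest number was 9, seen in oocytes and in 1 zygote with mutant Kdm4d. Most oocytes with Dam-lamin B1 had a LAD contrast below 0, so their numbers are not read as contact.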

How the data were processed

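Single cells and pronuclei were profiled by DamID. The authors deposited ratios of observed to expected signal per 100 kb bin for 512 cells, of which 498 were in groups. Reads were aligned to mm10, and cutadapt and BWA 0.7.12 are named, per the submitters' processing notes. The sources used here do not say how the expected value was made or how duplicates were treated. The deposited ICM and TE LAD lists hold intervals without a score. Of 24639 autosomal bins, 617 held no value.

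Genes were placed by RefSeq coordinates (GRCm38). The members and lists were chosen with earlier results of these data known. Groups of zygotes or pronuclei were compared with limma 3.58.1 (R 4.3.3, eBayes with trend) on log2(OE + 0.25) over bins with a mean OE of at least 0.1, adjusted over all bins with Benjamini-Hochberg. All 10 members are named, and of the network list the 5 with the largest called change in each direction for the zygote constructs. Alternatives were other pseudocounts, no filter, equal reads, 300 kb windows, the replicate number as a block, the start-site bin and, added after the data were seen, leaving out cells of consecutive numbers that stood apart genome-wide. On simulated zygotes at these depths the fit as deposited also called unchanged bins lower in the shallower group, and the equal-reads fit made few such calls, so both are given for that comparison. Cells were thinned to the shallowest of the fit for equal reads. No 2 cells had identical values (0 pairs), and numpy 2.4.6, pandas 2.3.3 and scipy 1.17.1 were used. Intervals from counts cover counting error only.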

Additional observations from a re-analysis of the deposited data

Results flagged for a closer look

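Of 70 sets of cells of a suitable size (4 to 10 cells at 1 member bin), 10 held a cell far from the others of its group. About 1 in 20 independent sets of normally distributed values would pass the limit used. The OE values are bounded at 0 and the sets share cells, so that rate need not hold here. Of the 10 sets, 5 came from the 4 cells of the 8-cell stage with Dam. The same cell was the lowest for Nanog (2.88, nearest 4.8), Tfcp2l1 (0.0, nearest 2.07), Prdm14 (0.0, nearest 3.13) and Dppa3 (2.12, nearest 6.8), and another was the highest for Zfp42 (2.04, nearest 1.1). Among maternal pronuclei without Kdm5b, single pronuclei lay high at Pou5f1 (1.46, nearest 0.768), Zfp42 (2.52, nearest 0.959) and Dppa3 (3.32, nearest 0.968). A zygote with mutant Kdm5b lay high at Pou5f1 (1.93, nearest 0.827), and a paternal pronucleus with mutant Kdm5b lay high at Nanog (2.24, nearest 0.925).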

How the results depend on the processing

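Depth limits single bins most. For the zygote constructs 8950 bins passed at equal reads in place of 14341. Of the 7 members that passed as deposited, Klf4 and Tfcp2l1 did not pass at equal reads. Between pronuclei 503 bins passed, against 322 with a pseudocount of 1, 13 at equal reads and 1298 over 300 kb, where 1 member (Zfp42) passed in place of 0. For Kdm5b in paternal pronuclei 4 bins passed, against 12 with a pseudocount of 0.1, 0 without the filter, 0 at equal reads and 1073 over 300 kb. For its difference between pronuclei 1 bin passed, against 0 with a pseudocount of 0.1, at equal reads and over 300 kb. For Kdm4d 1 bin passed, against 0 without the filter, at equal reads and over 300 kb. For aphidicolin 2 passed, against 0 without the filter, 1 at equal reads and 0 over 300 kb. The median share of zygotes with Dam-lamin B1 in contact over the members was 28.9%, 5.26% at an OE of at least 2 and 63.2% at 0.5. Without the cells of consecutive numbers that stood apart, 7 members and 11458 bins passed for the zygote constructs, and the stage counts that changed are given with the stages. The causes were not tested.

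Values of members that turned sign did not pass in either fit (44 in the alternatives chosen at the start). With a pseudocount of 0.1 this was Prdm14 between pronuclei (0.10). With a pseudocount of 1 these were Tfcp2l1 between pronuclei (-0.01), Pou5f1 for paternal Kdm5b (0.02), and Sox2 (0.01) and Prdm14 (0.01) for aphidicolin. At equal reads these were Nanog (1.08), Klf4 (-0.30), Tfcp2l1 (-0.34) and Dppa3 (0.46) between pronuclei. For Kdm5b in zygotes they were Klf4 (-0.05), Tfcp2l1 (-0.23) and Dppa3 (-0.47), in paternal pronuclei Klf4 (-0.08) and Tbx3 (0.37), and for its difference between pronuclei Klf4 (0.47). For Kdm4d they were Nanog (0.11), Sox2 (0.06) and Prdm14 (0.48), and for aphidicolin Nanog (0.16), Tfcp2l1 (-0.08) and Zfp42 (-0.25). Over 300 kb they were Zfp42 for the zygote constructs (0.07), Pou5f1 (0.09) and Tbx3 (0.30) for paternal Kdm5b, and Pou5f1 (0.01), Nanog (0.02), Klf4 (0.22) and Prdm14 (0.18) for Kdm4d. For aphidicolin over 300 kb they were Esrrb (-0.20), Prdm14 (0.10), Dppa3 (0.02) and Tbx3 (0.25). In the start-site bin Esrrb had -0.49 for the Kdm5b difference and -0.58 for aphidicolin.

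Replicate numbers shared between groups gave a block. The median correlation of deviations between same-numbered samples was -0.00399 for the zygote constructs and 0.0057 between pronuclei. The highest median was 0.0347, for Kdm5b in whole zygotes, beside -0.00659 for samples of unlike number. The numbers were not taken as pairs, though at a few counts per bin values near 0 cannot show that pairing was absent. With the replicate block 6 members and 10884 bins passed for the zygote constructs, 142 bins between pronuclei and 0 for paternal Kdm5b. The same samples without the block, a fit added after the data were seen, gave 142 and 0. With the block and without it on those samples the members that turned sign were Nanog (0.16) and Dppa3 (0.09) between pronuclei, Dppa3 (-0.17) for Kdm5b in zygotes, Pou5f1 (0.13) in paternal and Nanog (-0.03) in maternal pronuclei, Pou5f1 (0.12), Tfcp2l1 (0.13) and Dppa3 (0.29) for the Kdm5b difference, Tfcp2l1 (-0.01) for Kdm4d and Esrrb (-0.07) for aphidicolin.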
